A study of Mus musculus with 8 samples.

Results

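Cytosolic ribosomal proteins are the protein components of the cytoplasmic ribosome, named Rpl and Rplp in the large (60S) subunit and Rps and Rpsa in the small (40S) subunit. The large subunit joins amino acids into a chain, the small subunit reads the messenger RNA, and most ribosomal proteins are made in step with each other. Their messenger RNAs are among the most abundant in most cells, neurons included, and typically begin with a tract of pyrimidines through which growth signalling by mTOR controls their translation. A few have paralogs, such as Rpl39l beside Rpl39, that are used in particular tissues.

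Genes were taken by platform symbol: Rpl or Rps followed by a digit, Rpsa, Rplp0, Rplp1 and Rplp2, without the Rps6k kinases and Rps19bp1. This gave 61 of 8653 named genes, 38 of the large and 23 of the small subunit, measured by 92 of 12131 named spots. Of them 38 had 1 spot and 23 had several, up to 5. The list includes 5 paralogs, which are Rpl7l1, Rpl22l1, Rpl36al, Rpl39l and Rps27l.

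The mutants were 4 male mice, 19 weeks old, labelled ADAR-/-/GluR-BR/R. They lack the RNA editing enzyme ADAR2 and carry alleles for the arginine form of the GluR-B glutamate receptor subunit, the form that editing otherwise produces. Brain RNA of each mutant was hybridised beside 1 wildtype pool, made from brains of 4 males aged 19 weeks (the labelling protocol counts the control animals differently), on 1 array with the mutant in Cy5 and 1 with the mutant in Cy3. The pool is the only control and counts as 1 sample, so the tests leave out the spread between wildtype mice, and the 8 arrays come from 4 mutant mice (n = 4). Arrays held 20211 to 20559 usable values of 20794 spots, and only ratios were used, so the brain origin could not be checked against the level of markers.

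The labels do not say which channel is the numerator, and it is not settled whether a positive value means more RNA in mutants or in the pool. The mean ratio averages both arrays of a mouse, and it contrasts mutant with pool, one way or the other, only where every ratio has the same numerator sample. The swap component takes a mouse's Cy5-mutant array minus its Cy3-mutant array, divided by 2. It equals mutant over pool only where Cy5 is the numerator throughout. Where the same dye is the numerator throughout, the contrast of mutant with pool cancels in the mean ratio. Where the same sample is the numerator throughout, that contrast cancels in the swap component. Calls in either quantity may therefore hold no difference between mutant and pool. All values are log2 ratios with the median of the array subtracted, and signs are those of the deposited values. Values of all spots correlated at r = 0.22 to 0.40 between arrays with the mutant in Cy5, 0.43 to 0.68 between those with the mutant in Cy3 and 0.15 to 0.41 between orientations. Adarb1, the gene of ADAR2, had a mean ratio of 0.36 ± 0.168 (limma adjusted p = 0.158) and a swap component of -0.89 ± 0.134 (limma adjusted p = 0.0271) over 3 spots. Its spots differed from each other. With the mutant in Cy5 they ranged from -0.28 to 0.34, from -1.25 to 0.12 and from -1.97 to -0.37. In the same order, they ranged from -0.39 to 0.79, from 1.82 to 1.98 and from -0.71 to 3.47 with the mutant in Cy3. Whether those spots lie in the deleted stretch was not checked here. Gene names rest on a shift of 11 spots between annotation and values that was found in the data. Many ribosomal protein genes have near-identical processed pseudogenes and some have close paralogs, so a cDNA spot may also bind those transcripts, and the values are uncertain in that respect.

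Promoter sequences are shown for 5 of the genes named in the results below. Rpl26 had the largest mean ratio, Rpl39l the lowest, Rpl39 is the parent of Rpl39l, and Rpl38 and Rps27 were higher with the mutant in Cy5. Each runs 5′ to 3′ from 85 bases before to 15 after the annotated start in RefSeq (GRCm38.p6). Capitals mark CCGGAAG, a core that ETS factors such as GABP recognise, or CTTTCC, a short pyrimidine run, or their reverse complements.
Rpl26, chr11:68901481-68901580, plus strand: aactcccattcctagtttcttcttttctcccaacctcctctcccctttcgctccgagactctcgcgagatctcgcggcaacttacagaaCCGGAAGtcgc
Rpl39, chrX:37085208-37085307, minus strand: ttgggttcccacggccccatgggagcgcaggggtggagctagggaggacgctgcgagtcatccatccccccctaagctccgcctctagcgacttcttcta
Rpl39l, chr16:10170143-10170242, plus strand: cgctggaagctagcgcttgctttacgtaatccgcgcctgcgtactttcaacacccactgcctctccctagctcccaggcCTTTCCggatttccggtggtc
Rpl38, chr11:114668495-114668594, plus strand: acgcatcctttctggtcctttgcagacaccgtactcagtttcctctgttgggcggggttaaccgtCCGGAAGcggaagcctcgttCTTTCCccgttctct
Rps27, chr3:90213634-90213733, minus strand: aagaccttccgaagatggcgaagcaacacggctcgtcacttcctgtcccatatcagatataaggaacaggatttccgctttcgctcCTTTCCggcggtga

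RefSeq promoters of 300 bases, 250 before and 50 after the start, were matched for 53 of the 61 genes (61 promoters). CCGGAAG stood on either strand in 23 of these 61 promoters (37.7%), and in 2910 of all 32851 promoters of that length (8.86%). CTTTCC stood on either strand in 31 of 61 (50.8%), and in 8725 of all (26.6%). The motifs can share up to 2 bases, and a match is a description of these letters only. The paralog Rpl39l holds both in its longer promoter, while the parent Rpl39 holds CCGGAAG alone. Other genes named below were read over the same short stretch as the sequences shown. There Rplp2 and Rps16 hold neither motif, Rpl28 holds CTTTCC alone and Rpl31 holds CCGGAAG alone.

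Most ribosomal protein genes had a positive mean ratio. Of 61 genes, 42 were called positive, 1 was called negative and 18 were not called (limma, adjusted p below 0.05). In the same fit, 17.4% of all 8604 genes tested were called positive and 11.4% negative, 28.8% in either direction. From the 4 Cy3-mutant arrays alone limma called 40 of 60 members, 39 of them positive, against 2672 of 8266 genes (1768 positive). From the 4 Cy5-mutant arrays alone it called 0 of 60 members and 0 of all genes. There 37 members had an unadjusted limma p below 0.05, against 2026 of 8395 genes. The 18 members not called ranged from -0.78 to 0.56. The median of the members was 0.78, against -0.025 for all genes. In mice 1 to 4 the members' median stood at 0.85, 0.73, 0.87 and 0.75, so this median differed little between mice (SD 0.069, n = 4). The spread of single genes between mice can be larger. On all 8 arrays 35 of 59 members with complete values were positive, and none was negative on all 8. Over all 8119 genes with complete values, 12.7% were positive and 7.76% negative on all 8 arrays. Without centring, 37 members were called positive and 1 negative, against 11.3% and 17.5% of all genes, so positive calls were 39.4% of all calls in place of 60.4%.

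**Figure D1:**
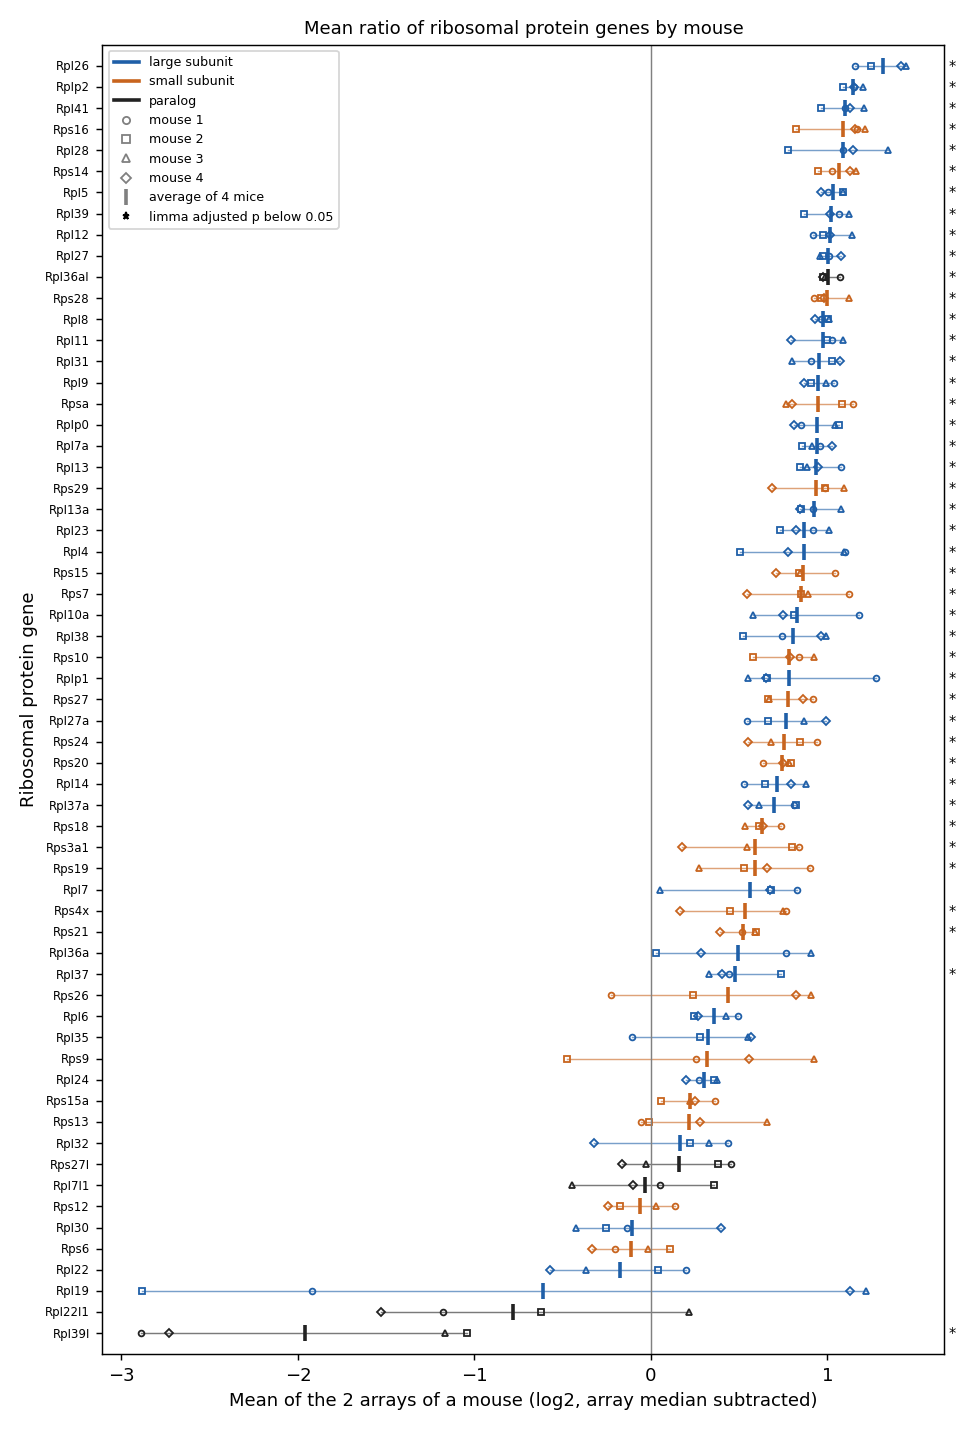
Mean ratio (log2, array median subtracted, x axis) of the 61 ribosomal protein genes (y axis, ordered by the average) in each of 4 mutant mice. Open symbols are mice, vertical ticks the average, lines the range, and stars genes called by limma. The 42 genes called positive have averages up to 1.32, and Rpl39l, Rpl22l1 and Rpl19 lie lowest.

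Among large subunit genes 26 of 38 were called positive and 1 negative, and among small subunit genes 16 of 23 were called positive and none negative. Rpl26, a protein at the exit of the peptide tunnel, had the largest value, with 1.16, 1.24, 1.45 and 1.42 in mice 1 to 4. Its average was 1.32 ± 0.123 (moderated SE, n = 4, limma adjusted p = 0.00753), and all 4 mice lay close together. Rplp2, an acidic stalk protein that helps recruit elongation factors, stood at 1.15, 1.09, 1.20 and 1.15, with an average of 1.15 ± 0.114 (limma adjusted p = 0.00753). Its spread between mice was among the narrowest of the genes named here. The other stalk proteins were Rplp0, the base of the stalk, at 0.94 ± 0.122, and Rplp1, its other acidic partner, at 0.78 ± 0.164, both called positive by limma (adjusted p = 0.00768 and 0.0199). Rplp1 had 1.27 in mouse 1 and 0.55 to 0.66 in the others, and it was not called without mouse 2, mouse 3 or mouse 4 (values 0.82, 0.86 and 0.83, limma adjusted p = 0.0657, 0.0525 and 0.0569).

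Further large subunit genes were named for the size of their values. Rpl41, the smallest ribosomal protein, had 1.10, 0.96, 1.21 and 1.13, and Rpl28 had 1.09, 0.78, 1.34 and 1.15. Rpl5, which binds the 5S ribosomal RNA, had 1.0005, 1.09, 1.09 and 0.96. Rpl39, the small protein of the peptide tunnel whose promoter is shown above, had 1.07, 0.87, 1.12 and 1.015. All mice were positive for each of them, and the averages were 1.10, 1.09, 1.03 and 1.02 (limma adjusted p = 0.00753 to 0.00768).

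In the small subunit, Rps16, near the decoding site, led with 1.17, 0.82, 1.21 and 1.15 in mice 1 to 4. Rps14, which lies in the 40S platform, had 1.03, 0.95, 1.16 and 1.13, from 2 spots. Rps28, beside the messenger RNA exit channel, had 0.92, 0.96, 1.12 and 0.98, also from 2 spots. No mouse was near 0 in any of these genes. Rpsa, also known as the laminin receptor, had 1.14, 1.08, 0.77 and 0.80, so mice 1 and 2 were higher than mice 3 and 4. Rps29, a zinc-binding protein, had 0.98, 0.99, 1.09 and 0.69, and Rps15, of the 40S head, had 1.04, 0.84, 0.85 and 0.71. These 6 genes averaged 0.86 to 1.09, and all were called (limma adjusted p = 0.00753 to 0.00852).

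The difference between the subunits was small. The median of large subunit genes was 0.85 and that of small subunit genes 0.63 in the averages over mice. Within mice 1 to 4 the large subunit median was 0.91, 0.76, 0.91 and 0.81, and the small subunit median 0.84, 0.61, 0.75 and 0.64. The large subunit was higher in each mouse, by 0.074, 0.14, 0.16 and 0.18 (average 0.14, SD 0.045, n = 4). Without the paralogs the differences were 0.080, 0.16, 0.18 and 0.18. Genes are not replicates and the mice share 1 pool, so no test was made of these differences. With spots in place of genes the difference of the averages was 0.087 in place of 0.22, and it was 0.094 with each run of 48 neighbouring spots centred on its own median.

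**Figure D2:**
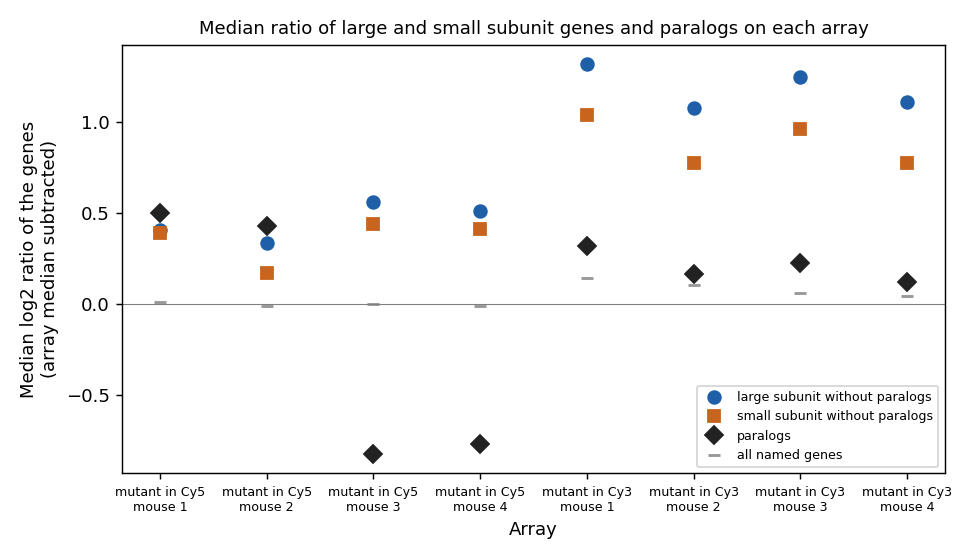
Median log2 ratio (y axis, array median subtracted) of large subunit genes without paralogs, small subunit genes without paralogs, the paralogs and all named genes on each of the 8 arrays (x axis, mutant in Cy5 left, in Cy3 right). Large lies above small on all 8 arrays, by 0.016 to 0.16 with the mutant in Cy5 and by 0.28 to 0.34 with the mutant in Cy3, and the paralogs change place between arrays.

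The paralogs were unlike each other. Rpl39l, the paralog of Rpl39 known for its use in the testis, was the one member called negative. It stood at -2.89, -1.04, -1.17 and -2.73 in mice 1 to 4, with an average of -1.96 ± 0.373 (limma adjusted p = 0.0155). Its Cy5-mutant arrays gave -0.83, 0.058, -1.37 and -3.62, and its Cy3-mutant arrays -4.95, -2.14, -0.97 and -1.84. The value was thus below 0 on 7 of 8 arrays, with a wide spread, and that of -3.62 was, before centring and without the array's constant, within 0.001 (log2) of a ratio of whole numbers up to 10. With such ratios set to missing the average was -1.74 (limma adjusted p = 0.0147). It was not called without mouse 4 (-1.70, limma adjusted p = 0.0559). Rpl39l minus Rpl39 was -3.96, -1.91, -2.29 and -3.75 in the 4 mice.

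Rpl36al, a close copy of Rpl36a, stood at 1.07, 0.98, 0.99 and 0.98 and was called positive at 1.002 ± 0.114 (limma adjusted p = 0.00753). Its parent Rpl36a had 0.76, 0.03, 0.90 and 0.29 and was not called (0.50 ± 0.185, limma adjusted p = 0.0946), while limma with the mouse as a random block on 8 arrays called it (adjusted p = 0.0431). The paralog lay above the parent in all 4 mice, by 0.083 to 0.95.

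The other paralogs were not called. Rpl22l1, paralog of the RNA-binding protein Rpl22, had -1.18, -0.62, 0.22 and -1.53, where the value of mouse 4 rests on 1 array (average -0.78 ± 0.297, limma adjusted p = 0.0991). It was called without mouse 3 at -1.11 (limma adjusted p = 0.0445) and with runs of 48 spots centred at -1.05 (limma adjusted p = 0.0343). Arrays of the same mouse differed in sign, at 0.92 and -3.27 in mouse 1 and -0.82 and 1.26 in mouse 3 (Cy5-mutant array first). The Cy5-mutant value of mouse 2 (-0.43) and the value of mouse 4 counted as ratios of small whole numbers by the rule above. Rpl22l1 was not tested with such ratios set to missing, since mouse 4 then had no value. Its parent Rpl22 had 0.20, 0.04, -0.37 and -0.57, which is near 0 on average (-0.18 ± 0.171, limma adjusted p = 0.465). Rpl7l1, paralog of Rpl7, had 0.05, 0.36, -0.45 and -0.10, and Rpl7 itself had 0.83, 0.68, 0.05 and 0.67 (0.56 ± 0.167, limma adjusted p = 0.0544). For Rpl7 the Cy3-mutant arrays alone gave 1.13 (limma adjusted p = 0.0080) and the Cy5-mutant arrays alone -0.016 (limma adjusted p = 0.969). Rpl7 was also called without mouse 3 (0.73, limma adjusted p = 0.0456), with runs of spots centred (1.12, limma adjusted p = 0.0117), over complete spots only (limma adjusted p = 0.0448) and with the mouse as a random block (limma adjusted p = 0.0115). Rps27l, a paralog of Rps27 that p53 can induce, had 0.45, 0.38, -0.03 and -0.16. Its parent Rps27 had 0.92, 0.66, 0.67 and 0.86 and was called (0.78 ± 0.122, limma adjusted p = 0.00992). Rps27l lay below Rps27 in all 4 mice, by 0.29 to 1.02.

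As a group the 5 paralogs had 1 positive and 1 negative call, and the 56 other members had 41 positive calls and no negative one (73.2%), against the 28.8% of all genes. The median of the paralogs minus that of the other members was -0.85, -0.40, -0.91 and -0.95 in mice 1 to 4. With names read at the same spot number the difference of the averages was -0.64, a naming under which the members' median minus that of all genes was -0.096.

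Spots of the same gene did not always give the same value. Among the 92 spots, 65 were called positive and 4 negative, against 17.0% and 13.3% (30.4% in all) of 20595 spots. Across the 23 genes with several spots, the first 2 spots had the same sign in 15, and Pearson's r between them was 0.047 (a description across genes measured on the same arrays). Rps6, the target of the S6 kinases, had 1 spot at 0.80 (limma adjusted p = 0.0123) and 1 at -1.02 (limma adjusted p = 0.0164). Rpl30 had 1 spot at 0.71 (limma adjusted p = 0.0171) and 1 at -0.92 (limma adjusted p = 0.04). The averages of both genes were near 0, at -0.11 each, and neither was called. The remaining negative calls were the only spot of Rpl39l and 1 of the 2 spots of Rps12 (-0.71, limma adjusted p = 0.0169).

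The orientations differed among the members. In 30 of 59 genes all 4 arrays with the mutant in Cy3 lay above all 4 with the mutant in Cy5, against 17.4% of all genes, and in 6 all arrays with the mutant in Cy5 lay above, against 4.08% of all genes. Of the 36 large subunit genes with complete values 19 were of the first kind and 4 of the second, and of the 23 small subunit genes 11 and 2. Genes of the first kind had a median value of 0.38 with the mutant in Cy5 and 1.44 with the mutant in Cy3. The 6 of the second kind, Rpl27, Rpl31, Rpl37, Rpl38, Rps27 and Rps29, had 1.22 and 0.52. Over all spots, values spread wider with the mutant in Cy3 (SD 1.04 to 1.32) than with the mutant in Cy5 (SD 0.81 to 0.85). Arrays were centred and not scaled. The part of this wider spread in the members' orientations, swap components and subunit differences was not tested.

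**Figure D3:**
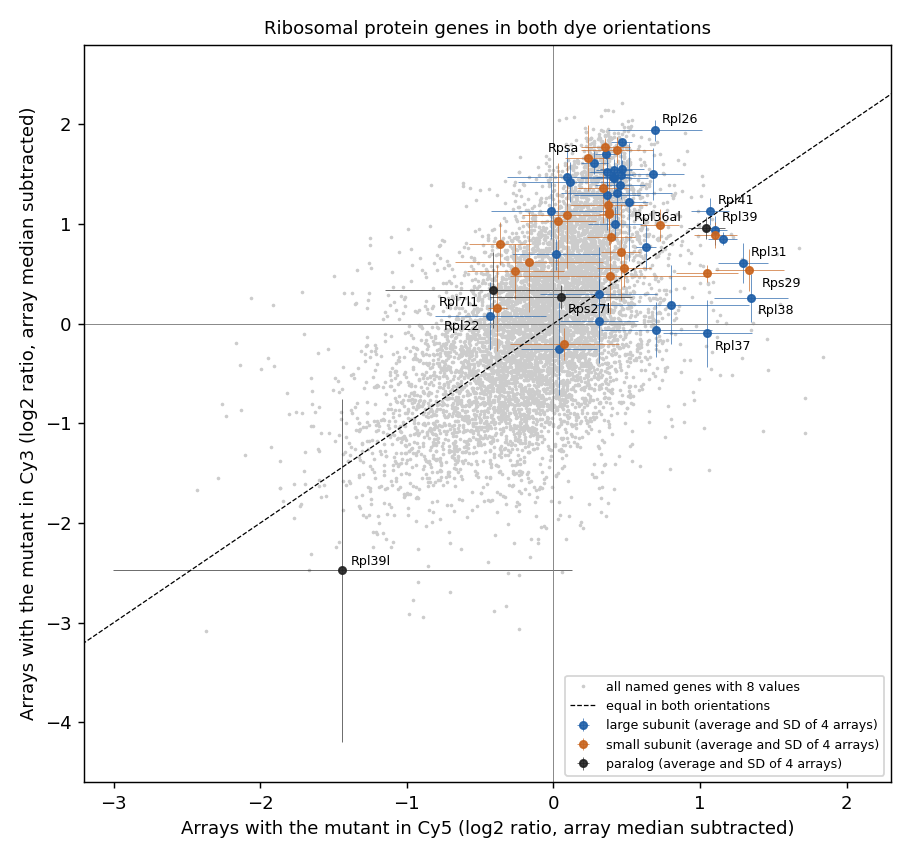
Average log2 ratio of each ribosomal protein gene over the 4 arrays with the mutant in Cy5 (x axis) and over the 4 with the mutant in Cy3 (y axis), with the SD of 4 arrays as bars, over all named genes in grey. The 30 genes whose Cy3-mutant arrays all lie higher have medians of 0.38 and 1.44, Rpl38, Rpl31, Rps29 and Rpl37 lie to the right below the line of equal values, and Rpl39l lies alone at -1.44 and -2.47.

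In the swap component, 19 of 59 members were called negative and 1 positive (limma, adjusted p below 0.05), against 7.94% and 1.37% (9.31% in all) of 8107 genes. The members' median was -0.36 and that of all genes -0.077. Of 88 spots of members, 21 were called negative and 3 positive, against 6.43% and 1.41% (7.84% in all) of 18797 spots. As deposited, without centring, 6 members were called negative and 2 positive, against 2.45% and 1.07% (3.53% in all) of all genes. Without mouse 1, mouse 2, mouse 3 or mouse 4 no member was called by limma, and no gene of the whole table was. With all 4 mice, 37 of 59 members had an unadjusted limma p below 0.05, against 2516 of 8107 genes.

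Rpsa had the largest negative swap component, with -0.81, -0.84, -0.75 and -0.46 in mice 1 to 4 (average -0.72 ± 0.114, limma adjusted p = 0.0271). Rps14, at -0.64, -0.83, -0.72 and -0.65, and Rpl5, at -0.67, -0.69, -0.64 and -0.69, lay nearby. The values of Rpl5 in the 4 mice were nearly equal. The arrays behind it stood at 0.33, 0.40, 0.45 and 0.27 with the mutant in Cy5 and at 1.67, 1.78, 1.72 and 1.65 with the mutant in Cy3, without overlap. The stalk proteins Rplp1 and Rplp2 had -0.69 ± 0.106 and -0.68 ± 0.0976, and Rpl9 had -0.67 ± 0.1 (limma adjusted p = 0.0271 for each). Rplp0, the base of the stalk, was also called negative, at -0.58 ± 0.112 (limma adjusted p = 0.0353).

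Rpl38, a protein of the large subunit needed for the patterning of the mouse skeleton, was the one member called positive. Its swap component was 0.53, 0.56, 0.69 and 0.41 (average 0.54 ± 0.105, limma adjusted p = 0.0349). It was not called with runs of 48 spots centred (0.51, limma adjusted p = 0.0554), where 11 members were called negative and 0 positive. As deposited, 2 members were called positive, against 1.07% of all genes. With the mouse as a random block 4 members were called positive, and calls over all genes were also more numerous there. The arrays of Rpl38 stood at 1.27, 1.08, 1.68 and 1.37 with the mutant in Cy5, and at 0.22, -0.03, 0.30 and 0.56 with the mutant in Cy3. Rpl37 had a similar size, 0.57 ± 0.134, and was not called (limma adjusted p = 0.0502), with both of its spots positive at 0.70 and 0.45. Rps29 stood at 0.40 ± 0.108, Rpl35 at 0.38 ± 0.103 and Rpl31 at 0.34 ± 0.108, none of them called (limma adjusted p = 0.0672, 0.0679 and 0.0911). Rps27, whose promoter is shown above, had 0.27 ± 0.102 and was not called either (limma adjusted p = 0.136). Rps29 was called with the mouse as a random block (limma adjusted p = 0.0237) and without ratios of small whole numbers (limma adjusted p = 0.0462). Rpl39 and Rpl41 had 0.083 and -0.028, with arrays near 1 in both orientations.

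**Figure D4:**
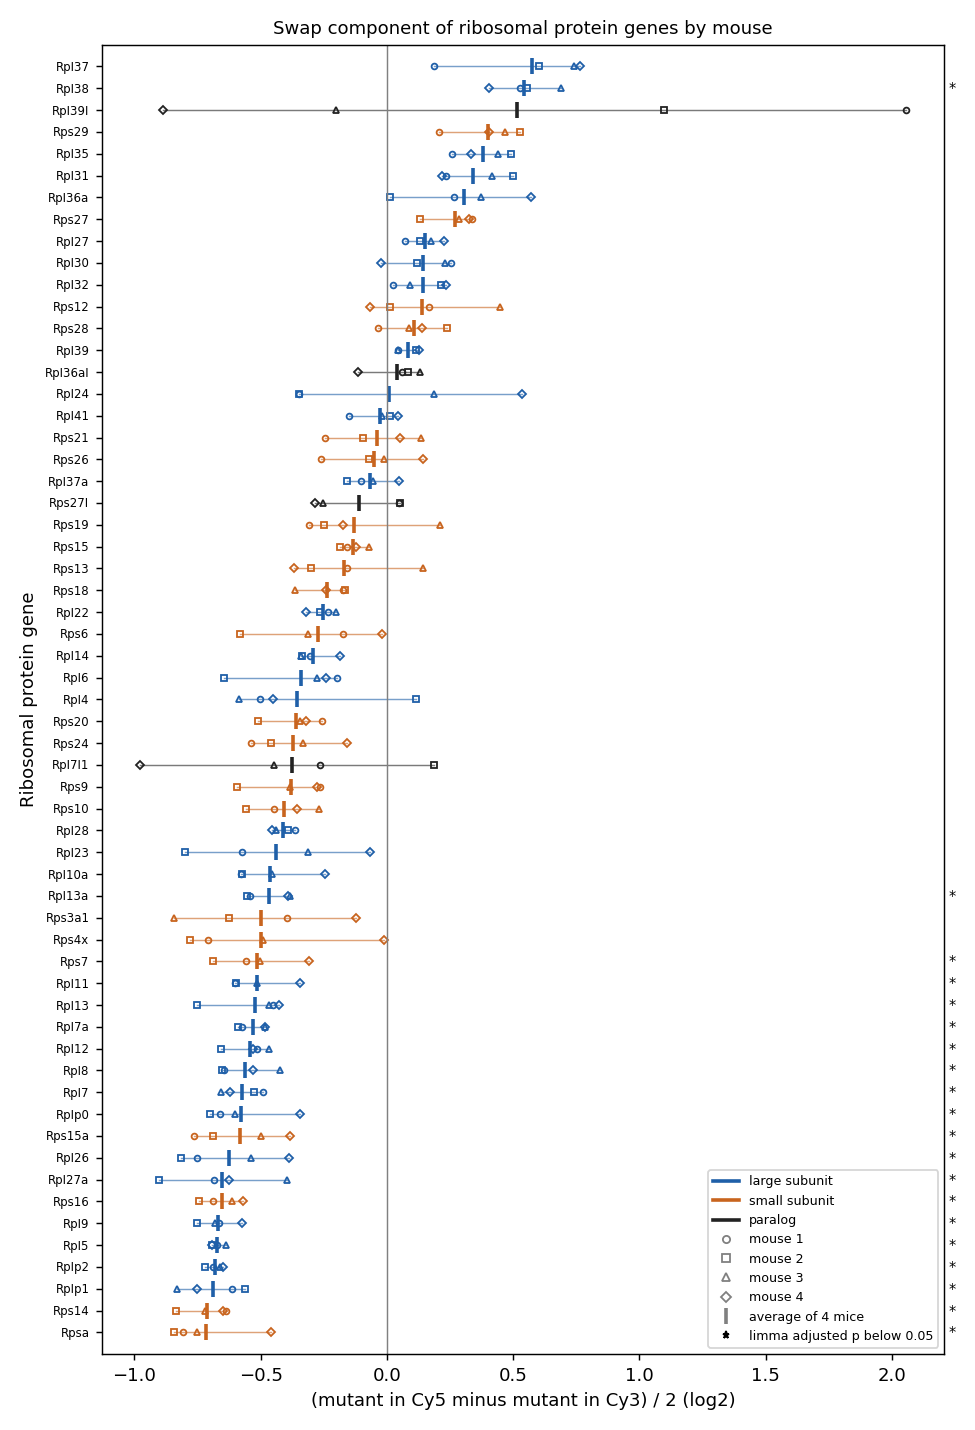
Swap component (log2, x axis) of the 59 ribosomal protein genes with values on all 8 arrays (y axis, ordered by the average) in each of 4 mutant mice. Open symbols are mice, vertical ticks the average, lines the range, and stars genes called by limma; values run from -0.72 for Rpsa to 0.57 for Rpl37, and Rpl39l spreads from -0.89 to 2.06.

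The subunits differed little in the swap component. The large subunit median minus the small subunit median was -0.095, 0.089, -0.052 and -0.16 in mice 1 to 4, with an SD of 0.105 around an average of -0.054. Without the paralogs it was negative in all 4 mice, at -0.19, -0.043, -0.063 and -0.15. Large subunit genes had 14 negative calls and 1 positive call of 36, and small subunit genes 5 negative calls of 23. The 4 paralogs with complete values had no call, with Rpl39l at 2.06, 1.10, -0.20 and -0.89, so that mice 1 and 2 were positive and mice 3 and 4 negative. Across the 21 genes with several complete spots, the first 2 spots had the same sign in 14 (Pearson's r = 0.32, a description).

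Other genes of the pathway were read from lists picked by function. Among further messenger RNAs with a pyrimidine tract at the start, 10 of 19 were called positive in the mean ratio and none negative (median 0.55), against 17.4% and 11.4% of all genes. Eef2, the elongation factor that moves the ribosome along, stood at 1.05 ± 0.119, Tpt1 at 1.05 ± 0.115 and Eef1a1, which brings in transfer RNA, at 0.74 ± 0.141 (limma adjusted p = 0.00753, 0.00753 and 0.0156). Their swap components were -0.77, -0.67 and -0.64, and 7 of the 19 were called negative there, against 7.94% of all genes. Fau, which encodes a ribosomal protein of the small subunit as a fusion, was the one measured gene of its list, at 0.57 ± 0.213 (limma adjusted p = 0.0927).

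In the other lists the share called was below the 28.8% of all genes. Of 61 assembly factors 7 were called positive and 6 negative (21.3%, median -0.021), with the nucleolar protein Npm1, which is also in the list before, at 0.98 ± 0.115 and Polr1a, the largest subunit of RNA polymerase I, at -1.20 ± 0.156 (limma adjusted p = 0.00753 and 0.00773). Of 61 mitochondrial ribosomal proteins 5 were called positive and 2 negative (11.5%, median 0.093), with Mrpl18 at 0.88 ± 0.121 and Mrps35 at -1.71 ± 0.485 (limma adjusted p = 0.00817 and 0.0468). Of 12 genes of mTOR signalling 2 were called positive and none negative (16.7%, median 0.27), Rptor at 0.48 ± 0.123 and Rps6kb2, an S6 kinase, at 0.61 ± 0.146 (limma adjusted p = 0.0343 and 0.0299). In the swap component 3, 3 and 1 genes of these lists were called, all negative, of 57, 59 and 11, which is 5.26%, 5.08% and 9.09% against 9.31% of all genes.

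Neuron, astrocyte and oligodendrocyte markers had medians of the same sign as the members, and microglia and blood markers of the opposite sign, in the mean ratio. There 8 of 12 neuron markers were called positive and none negative (median 0.82), as were 4 of 9 astrocyte (0.40) and 4 of 7 oligodendrocyte markers (0.60). Microglia markers had 1 positive and 3 negative calls of 6 (median -0.40), and blood markers had 1 and 3 of 5 (-0.86). Over all genes 17.4% were called positive and 11.4% negative. In the swap component no marker was called positive. Negative calls were 6 of 11 neuron (median -0.54), 1 of 9 astrocyte (-0.38), 3 of 7 oligodendrocyte (-0.38), 0 of 6 microglia (-0.027) and 1 of 5 blood markers (0.068), against 7.94% of all genes. In bulk tissue fewer cells of a type and less RNA per cell cannot be told apart, and the part of these markers in the members' values was not tested.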

How the data were processed

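Brain RNA was hybridised to 2-colour cDNA arrays. Per the labels, RNA was isolated with a column kit, reverse transcribed and labelled indirectly with Cy3 or Cy5. The authors deposited 1 log2 value per spot and array, a channel ratio shifted by a constant; the scale was read from the values. Background correction, normalization and numerator: not stated in the sources read here. The top value of each array, which fits an empty denominator coded as 100000 (found in 1 to 30 spots), was set to missing.

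Each array was centred on its median here and not scaled. Spots needed a value in every mouse, or on all 8 arrays for the swap component. Values of a gene on an array averaged the spots with a value there. For Rps13 and Rps9 that was 1 of 2 spots on the Cy5-mutant array of mouse 3. Spots of a gene were averaged per mouse, and limma 3.58.1 under R 4.3.3 (an intercept fitted with lmFit, moderated with eBayes) tested 4 mouse values against 0 over all named genes, adjusted after Benjamini-Hochberg (threshold 0.05). Standard errors are limma's moderated ones.

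The members, lists and the naming shift of 11 spots (annotation spots up to 20000) were chosen with earlier results of these data known. The genes named are the paralogs with their parents, the stalk proteins and Rpsa, the 6 members per subunit with the largest absolute called mean ratio, the 6 with the largest called swap component, members called against the majority sign, and members whose spots were called with opposite signs. A few others were picked after their values were seen. Other centring, filters, models, orientations and names, and leaving out each mouse, were tried.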

Additional observations from a re-analysis of the deposited data

Results flagged for a closer look

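In 3 of 59 checks over 4 mice, 1 mouse lay far from the others by Dixon's test at 95%. Chance alone gives about 1 in 20 such checks. For Rpl36al the mean ratio of mouse 1 was 1.069 and the other mice stood at 0.98 to 0.99. For Rplp1 the mean ratio of mouse 1 was 1.273, with the others at 0.55 to 0.66. For Rps16 the mean ratio of mouse 2 was 0.82, below 1.15 to 1.21 in the others.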

How the results depend on the processing

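In the mean ratio, the count of called members (43) stayed between 38 and 47 under 5 alternatives, was 40 from the 4 Cy3-mutant arrays and was 30 to 38 with a mouse left out. It was 69 of 92 with spots in place of genes. From the 4 Cy5-mutant arrays limma called 0 members (37 at an unadjusted p below 0.05) and 0 of all genes (2026). The count over all genes (2481) was 1953 to 3062 under the same 5 alternatives and 2672 from the 4 Cy3-mutant arrays. It was 6256 over spots and 1116 to 1729 with a mouse left out. As deposited, positive calls made up 39.4% of all calls in place of 60.4%, and 37 of 38 calls among the members. In the swap component, the count of members (20) was 8 as deposited, 31 with the mouse as a random block on 8 arrays, 11 with runs of 48 spots centred and 0 with any mouse left out. The count over all genes (755) was 286, 1428, 396 and 0 there, and 1473 over spots.

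The members' median minus that of all genes was 0.80 in the mean ratio and -0.28 in the swap component. It was 0.89 and -0.22 over spots, 0.75 to 0.85 and -0.27 to -0.24 with a mouse left out, and -0.096 and 0.025, reversed, with names at the same spot number. The large minus small subunit median was 0.22 in the mean ratio. It was 0.087 over spots, 0.29 without ratios of small whole numbers, 0.094 with runs of spots centred, 0.14 to 0.26 with a mouse left out and -0.22, reversed, with names at the same spot number. In the swap component it was -0.094, but -0.22 over spots, -0.11 to 0.027 with a mouse left out (0.027, reversed, without mouse 4) and 0.15, reversed, with names at the same spot number. Names at the same spot number give each gene the value of a different spot, so the reversed values under that naming describe other spots. The cause of the other shifts was not tested. Signal over background was not used here, which limits the lowest values, such as those of Rpl39l.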

Other observations

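Rpl19, Rps26 and Rps9 each had 1 spot that split by mouse. Where it had a value, it was negative on the arrays of mice 1 and 2 and positive on those of mice 3 and 4. These spots were picked after their values were seen. How many of all spots share this pattern was not counted, so it is not a trait of the members. Rpl19, measured by 1 spot, had -1.92 and -2.82 in mice 1 and 2 and 0.66 and 0.65 in mice 3 and 4 with the mutant in Cy5. With the mutant in Cy3 it had -2.94 in mouse 2, and 1.77 and 1.61 in mice 3 and 4. The spot of Rps26 had -3.53, -1.35, 1.58 and 0.92 in mice 1 to 4 with the mutant in Cy5, while its other 2 spots were positive on all 8 arrays. The spot of Rps9 had -0.21, -1.03, 1.47 and 1.05 with the mutant in Cy3. No cause was tested.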
